A study of Homo sapiens with 16 samples.

Results

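Kelly is an established human neuroblastoma cell line with amplified MYCN. Its RNA was followed here from day 2 to day 5 of exposure to 2 uM GSK126, a small molecule that blocks the methyltransferase activity of EZH2. The step was measured in 4 of the 16 libraries of the series, namely the 2 Kelly libraries labelled GSK126 day 2 and the 2 labelled GSK126 day 5, chosen by their labels alone. It was read beside the same step in DMSO, the vehicle control, which comprised 2 Kelly libraries at day 2 and 2 at day 5. It was also set beside 4 libraries of LAN-1, another MYCN-amplified line, given the same dose for the same times. Each group is 1 cell line in culture with no engineered allele, the dose was the same in every GSK126 group, and a library from before exposure was not analysed here. Nothing in the labels tells whether the duplicates are separate cultures, so p-values measure only the spread between these samples, which may be technical.

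EZH2 is the catalytic subunit of Polycomb repressive complex 2 (PRC2), which places the repressive mark H3K27me3 on the promoters of silent genes, many of them rich in CpG. The mark is copied onto new histones after replication, so that inhibiting the enzyme thins it over successive divisions rather than at once. Most neuroblastoma cells keep a noradrenergic (adrenergic) identity, held by transcription factors such as HAND2 and GATA3 and visible as catecholamine synthesis, and some lines instead carry a mesenchymal program of matrix, adhesion and growth factor receptor genes.

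The 4 GSK126 libraries of Kelly held 1197716 to 1615740 counts and all 8 Kelly libraries 1102922 to 1666190. Levels are given as CPM, counts scaled to a library total of 1e+06, and compare a gene only with itself. All 13 neuroblastoma identity markers were detected, with a summed level of 8805 to 8990 CPM at GSK126 day 2 and 7304 to 7365 CPM at day 5. The corresponding sums in DMSO were 9096 to 9825 CPM at day 2 and 9827 to 9971 CPM at day 5. The first principal component of the Kelly libraries held 35.88% of the variance. On it the GSK126 day 5 libraries lay at 30.49 and 29.41, the GSK126 day 2 libraries at -0.03 and 0.38, and the DMSO libraries between -21.98 and -10.55. The second component held 14.57% and set DMSO day 2 replicate 1, the shallowest Kelly library, apart from the other 7 (26.59 against -11.45 to 10.49). In that pair of duplicates the log2 ratio of replicate 1 to replicate 2 went with the GC content of genes (Spearman's rho across genes -0.458). The same rho was 0.278 for the pair at GSK126 day 5, 0.128 at GSK126 day 2 and -0.17 at DMSO day 5. It was -0.21 for the GSK126 step, 0.071 for the DMSO step and -0.234 for the difference of the 2 steps. With transcript length the rho was 0.167 for the GSK126 step, -0.009 for the DMSO step and 0.152 for their difference. The values for steps are over 7736 genes that are not independent replicates. The part of base composition or length in the results below was not tested.

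Between day 2 and day 5 of GSK126, the collagen genes COL3A1 and COL1A1, FN1 and PRRX1 rose in Kelly, as did YBX3 and INSR, which had no read in DMSO, while the enzymes of catecholamine synthesis DBH, TH and DDC, MYCN and the imprinted growth regulators IGF2, DLK1 and RTL1 fell. Genes count as called at an adjusted p under 0.05 in edgeR's quasi-likelihood test, adjusted over all 11863 tested genes. By that rule 349 genes (2.94%) were called in the GSK126 step, 237 higher (2.00%) and 112 lower (0.944%), and in each the 2 day 5 libraries lay on 1 side of both day 2 libraries. In the DMSO step 52 genes (0.438%) were called, 28 higher (0.236%) and 24 lower (0.202%). The median log2 fold change of the GSK126 step was 0.93 over the 237 and -0.58 over the 112, and 106 of the 237 but 12 of the 112 changed by at least 2-fold. The same 237 genes had a median of 0.16 in the DMSO step and the same 112 a median of -0.12. The difference of the 2 steps was itself called for 45 genes (0.379%), 24 in which the GSK126 step was the more positive (0.202%) and 21 in which it was the more negative (0.177%). Of the 237 risers 21 were among those 45, and of the 112 fallers 15. Counts for gene lists below are to be read beside the 2.00% called higher and 0.944% called lower over all tested genes. The lists overlap and were chosen with earlier results of these data known, so a count above those shares is no independent support. A short list with no called member, or a single one, says little about the list. In bulk RNA, fewer cells of a type and less RNA per cell cannot be told apart.

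The number of calls depended on the tool and on single libraries. DESeq2 called 49 genes higher and 19 lower in the GSK126 step, all 68 of them among the 349. Leaving out 1 of the 4 libraries at a time gave 77 to 130 higher and 24 to 57 lower, the fewest higher without GSK126 day 2 replicate 1 and the fewest lower without GSK126 day 5 replicate 2, and 63 genes (50 higher, 13 lower) were called in all 4 of these fits. Genes described below as held passed in all 4, which says nothing of the other tool. Of the genes named as held in the GSK126 step, DESeq2 did not call IGFBP3 (adjusted p = 0.24), ITGA5 (0.22), TNR (0.18), CRABP2, PLXNA4 and ESRRG (0.054 each), and gave no adjusted p for CCND2, C7 and HLA-B.

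A set of rises started from genes with hardly any read in Kelly without the drug. Of 233 tested genes with at most 3 counts over the 4 DMSO libraries, 18 were called higher in the GSK126 step. Over all tested genes 2.00% were called higher. The 18 had 7 to 70 counts over the 2 day 5 libraries. These genes passed the count filter only through libraries other than the 4 DMSO ones, which may be the day 5 drug libraries themselves. From so low a level they could hardly be called lower. The 18 of 233 and the 2.00% are therefore not comparable. The genes are described because of their low DMSO level. At GSK126 day 2, 13 of the 18 already had a read and 5 had none. YBX3, a Y-box DNA- and RNA-binding protein, had 0 counts in all 4 DMSO libraries, 4.9 and 2.55 CPM at GSK126 day 2 and 24.6 and 23.7 CPM at day 5. INSR, the insulin receptor, had 0 counts in DMSO, 2.45 and 5.11 CPM at GSK126 day 2 and 21.3 and 15.3 CPM at day 5. Both genes were therefore read in all 4 drug libraries and in none of the DMSO ones, and both rose further with time. The GSK126 step was 2.66 ± 0.38 (log2, estimate ± SE) for YBX3 (adjusted p = 1.9e-07) and 2.25 ± 0.41 for INSR (adjusted p = 7.5e-05), and both held. Against DMSO at day 5, with a floor of 3 counts over the 2 DMSO libraries, YBX3 was at least 24.0-fold higher and INSR at least 18.1-fold higher.

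The promoters of YBX3 and INSR are shown because these genes had no read in DMSO and were read in every drug library. Each sequence runs from 250 bases before to 50 bases after the RefSeq start (GRCh38.p14), 5′ to 3′ on the strand of the gene, with each CG in capitals. The YBX3 promoter (chr12:10723274-10723573, minus strand) held 32 CG, and the INSR promoter (chr19:7294365-7294664, minus strand) held 36. Of the 35116 promoters of this length in the table, 18.9% held at least as many CG as that of YBX3 and 12.7% at least as many as that of INSR, and the median was 14. The promoters of tested genes in the table had a higher median of 25 CG, and a comparison with the tested genes is void because the table held only 76.1% of them. Histone marks were not analysed here, so the sequences are a description only.
YBX3: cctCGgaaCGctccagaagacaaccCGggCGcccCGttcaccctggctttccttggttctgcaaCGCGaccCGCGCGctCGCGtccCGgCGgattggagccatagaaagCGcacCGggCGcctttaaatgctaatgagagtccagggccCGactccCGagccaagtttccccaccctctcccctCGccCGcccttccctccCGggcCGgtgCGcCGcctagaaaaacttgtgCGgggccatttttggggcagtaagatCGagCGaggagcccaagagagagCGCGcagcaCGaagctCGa
INSR: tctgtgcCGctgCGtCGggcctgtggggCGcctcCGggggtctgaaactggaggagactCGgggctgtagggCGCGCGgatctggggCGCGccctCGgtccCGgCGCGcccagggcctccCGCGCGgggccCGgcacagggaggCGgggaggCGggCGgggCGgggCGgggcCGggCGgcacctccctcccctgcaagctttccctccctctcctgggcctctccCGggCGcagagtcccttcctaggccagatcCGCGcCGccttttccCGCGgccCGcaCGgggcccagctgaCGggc

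CCND2, which encodes cyclin D2, a partner of CDK4 and CDK6, had 1 count over the 4 DMSO libraries, 0 and 1.91 CPM at GSK126 day 2 and 30.3 and 25.2 CPM at day 5. The 70 counts at day 5 against 3 at day 2 gave a ratio of 29.5, with an exact 95% counting interval of 9.7 to 147, and the call held (adjusted p = 3.3e-10). NOTCH2, a Notch receptor, had 1.8 and 1.85 CPM in DMSO at day 2 and 1.5 and 0.608 CPM at day 5. With GSK126 it had 6.74 and 12.8 CPM at day 2 and 50 and 57.3 CPM at day 5. All 4 drug libraries of NOTCH2 lay above all 4 DMSO libraries, and its step was 2.46 ± 0.26 (adjusted p = 9.1e-13, held). NOTCH2 shares sequence with the NOTCH2NL copies, and CCND2 overlaps an antisense gene, so reads could be split or pooled by counting whose strand setting is not given in the sources used here. Others of the 18 with near-zero DMSO levels, named after their values were seen, were SASH1, a scaffold protein (1 count in DMSO, 11 at GSK126 day 2, 40 at day 5), the cyclin-dependent kinase CDK14 (3, 8 and 30 counts) and the endocytic protein AMPH (1, 2 and 13 counts). FBN2, which encodes the microfibril protein fibrillin-2, went from 0 counts over the 6 earlier and DMSO libraries to 11 counts at day 5, at least 4.64-fold over day 2. With 1 library left out SASH1 passed in 3 of 4 fits (adjusted p = 0.14 without GSK126 day 2 replicate 1) and AMPH in 1 (adjusted p = 0.43 without the same library). CDK14 passed in 2 (adjusted p = 0.10 without GSK126 day 5 replicate 1) and FBN2 in 1 (adjusted p = 0.20 without the same library). The difference of the steps was not called for YBX3, INSR, CCND2 or NOTCH2, which had 0 to 8 counts over the 4 DMSO libraries, so that their DMSO step was hardly measured.

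**Figure D1:**
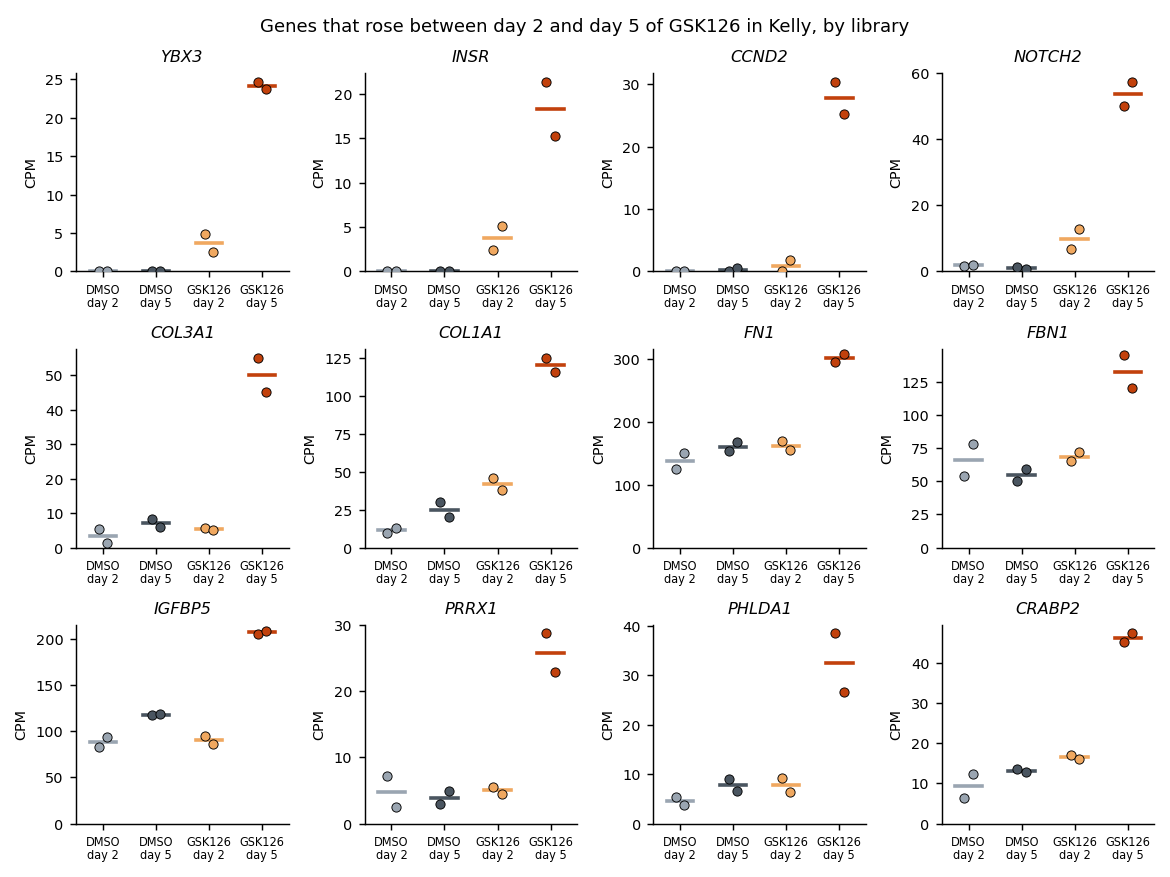
CPM of 12 genes called higher in the GSK126 step, in each of the 8 Kelly libraries; points are libraries, bars are the means of 2, and each y axis starts at 0. YBX3 and INSR lie at 0 in all 4 DMSO libraries, and COL1A1 goes from 9.88 and 13 CPM at DMSO day 2 to 125 and 116 CPM at GSK126 day 5.

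Of 18 tested collagens, 5 were called higher and 0 lower (median log2 step 0.29, against 0.00 over all genes), and of 37 tested non-collagen matrix genes, 6 were called higher and 0 lower (median 0.42), beside 2.00% called higher over all genes. In the DMSO step 2 collagens were called higher (median 0.50, above that with GSK126) and 0 matrix genes (median 0.19). The difference of the steps was called for 0 collagens and for 2 matrix genes, both more positive with GSK126. The other 13 collagens and 31 matrix genes did not pass. COL3A1, the chain of type III collagen, had 5.51 and 5.11 CPM at GSK126 day 2, near its 5.39 and 1.24 CPM (day 2) and 8.22 and 6.08 CPM (day 5) in DMSO. At GSK126 day 5 it had 54.9 and 45.1 CPM, far outside all 6 others, a step of 3.21 ± 0.32 (adjusted p = 4.7e-14, held). COL1A1, the alpha-1 chain of type I collagen, had 9.88 and 13 CPM in DMSO at day 2, 29.9 and 20.1 CPM in DMSO at day 5, 45.9 and 38.3 CPM at GSK126 day 2 and 125 and 116 CPM at GSK126 day 5. Its groups did not overlap at any point, its GSK126 step was 1.51 ± 0.17 (adjusted p = 7.1e-12, held), and its DMSO step of 1.06 ± 0.31 was not called (adjusted p = 0.10). The difference of these 2 steps, 0.45 ± 0.37, was not called either (adjusted p = 0.87). COL2A1, the chain of cartilage collagen, was at 7.96 and 5.74 CPM and then 25.4 and 25.2 CPM (1.87 ± 0.33, held).

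FN1, fibronectin, stood at 170 and 154 CPM at GSK126 day 2, overlapping the 153 and 167 CPM of DMSO day 5, and at 295 and 307 CPM at GSK126 day 5. Its GSK126 step was 0.89 ± 0.11 (adjusted p = 1.5e-09, held). FBN1, the microfibril protein fibrillin-1, had 64.9 and 72.1 CPM and then 145 and 120 CPM with GSK126, and 53.9 and 77.9 CPM and then 50.1 and 59 CPM in DMSO. The FBN1 step was 0.95 ± 0.15 with GSK126 (held) and -0.30 ± 0.18 in DMSO, and the difference of 1.25 ± 0.24 was called (adjusted p = 6e-04). That difference lost its call in 1 of 8 fits, without DMSO day 2 replicate 2 (adjusted p = 0.16). The FN1 difference of 0.69 ± 0.17 was called at adjusted p = 0.027 but passed in only 2 of the 8 fits, with adjusted p = 0.28 without the same library. TNR, the neural matrix glycoprotein tenascin-R, went from 11.6 and 12.1 to 32 and 41.2 CPM (1.62 ± 0.29, held). The list counts were smaller with 1 library left out: 3 collagens in each of the 4 fits, and 3 to 4 matrix genes. DESeq2 called 3 collagens and 2 matrix genes.

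The mesenchymal list had 11 of 35 tested members called higher and 0 lower (median 0.36), and 5 to 8 with 1 library left out, the fewest without GSK126 day 2 replicate 1. DESeq2 called 5. In the DMSO step 1 member was called higher and 1 lower (median 0.20). The difference of the steps was called for 2 members, both more positive with GSK126, and for 0 by DESeq2. The mesenchymal list shares COL1A1, COL3A1, FN1 and NOTCH2 with the groups above. VIM, vimentin, named after its value was seen, had 136 and 136 CPM at GSK126 day 2 and 183 and 186 CPM at day 5 (0.43 ± 0.12, adjusted p = 0.023). It passed in none of the 4 fits with a library left out, at adjusted p = 0.21 without GSK126 day 2 replicate 1. PRRX1, a homeobox factor of limb and craniofacial mesenchyme, had 2.47 to 7.19 CPM in the 6 other Kelly libraries and 28.7 and 22.9 CPM at GSK126 day 5 (2.34 ± 0.38, adjusted p = 4.3e-06, held). PDGFRA, a platelet-derived growth factor receptor, had 0.608 to 5.98 CPM in DMSO, 7.35 and 11.5 CPM at GSK126 day 2 and 28.7 and 24.4 CPM at day 5 (1.49 ± 0.32). The PDGFRA call was lost without GSK126 day 2 replicate 1 (adjusted p = 0.13). Both genes were highest in the day 5 drug libraries, and PRRX1 was not raised at day 2.

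Markers of fibroblasts moved with this group: 5 of 8 tested markers were called higher, and their summed level was 252.0 to 265.1 CPM at GSK126 day 2 and 466.6 to 489.3 CPM at day 5, against 189.5 to 277.3 CPM in DMSO. The fibroblast list contains COL1A1, COL3A1, PRRX1 and PDGFRA. Its members FAP and COL1A2, the partner chain of COL1A1 in type I collagen, had 0 counts in all 8 Kelly libraries, and DCN and POSTN had 1 count each, both in GSK126 day 5 replicate 1. The part of other cells in these rises was not tested. Of 12 endothelial markers KDR, a VEGF receptor, was the only one with enough reads to be tested. It had 1.84 and 1.28 CPM at GSK126 day 2 and 14.8 and 7.64 CPM at day 5 and was called higher (2.76 ± 0.68), but passed in 1 of 4 fits with a library left out (adjusted p = 0.26 without GSK126 day 5 replicate 1). ESAM, EMCN and ROBO4 had no read in Kelly. The Schwann and glial sum was 57.6 to 64.4 CPM at GSK126 day 2 and 72.6 to 76.2 CPM at day 5, with S100B, EGR2 and CDH19 at 0.

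Of 20 tested integrins and cadherins, 5 were called higher and 1 lower (median 0.55), though without GSK126 day 5 replicate 2, and by DESeq2, a single riser remained called. ITGA5, the alpha chain of the fibronectin receptor, had 11.6 and 12.8 CPM at day 2 and 32 and 35.9 CPM at day 5 of GSK126 (1.47 ± 0.29, adjusted p = 2.3e-04, held). For ITGA5 the difference of the steps was not called, and DESeq2 did not call its GSK126 step. The single riser that DESeq2 called was CDH2. CDH2, N-cadherin, had 181 and 177 CPM and then 238 and 290 CPM (0.56 ± 0.11), and lost its call without GSK126 day 5 replicate 2 (adjusted p = 0.16). ITGA11, a collagen receptor chain, went the other way, from 44.7 and 36.4 to 22.9 and 16.8 CPM (-1.03 ± 0.25), and passed in 2 of the 4 fits with a library left out (adjusted p = 0.24 without GSK126 day 5 replicate 2).

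The 10 largest called fold changes among genes of at least 10 CPM also included C7, a terminal complement component (1.84 and 1.91, then 18.9 and 17.6 CPM; 3.22 ± 0.55), CHRDL1, a secreted BMP antagonist (1.84 and 1.91, then 12.3 and 14.5 CPM; 2.78 ± 0.54), and EMP2, a tetraspan membrane protein (0.612 and 1.91, then 10.7 and 14.5 CPM; 3.25 ± 0.58). KIRREL, a nephrin-like adhesion molecule, went from 1.84 and 3.19 to 32 and 17.6 CPM (3.25 ± 0.45). These 4 calls held. PHLDA1, one of 15 tested ERK feedback genes of which 3 were called higher (1 by DESeq2 or without GSK126 day 2 replicate 1) and 0 lower, went from 9.18 and 6.38 to 38.5 and 26.7 CPM (2.04 ± 0.31, held), beside 3.71 to 8.97 CPM in DMSO. CRABP2, which carries retinoic acid to its nuclear receptor, went from 17.1 and 15.9 to 45.1 and 47.4 CPM (1.48 ± 0.25, held). It was the only called member of 10 tested retinoid genes. HLA-B, a class I antigen-presenting molecule, went from 8.57 and 9.57 to 34.4 and 26 CPM (1.72 ± 0.33, adjusted p = 1.6e-04, held), with 2.24 to 3.59 CPM in DMSO, though its reads may be shared with other class I genes. No other of 10 tested genes of class I and peptide loading was called, nor any of 11 interferon-stimulated genes by edgeR or DESeq2. The median step of the latter was 0.75, and at an unadjusted p under 0.05 edgeR had 4 higher and 0 lower.

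Among neuronal cytoskeleton, adhesion and synapse genes, 3 of 47 were called higher and 2 lower, with a median of -0.01. Over all genes 2.00% were called higher and 0.944% lower. DCX, the microtubule-associated protein of migrating neurons, had 123 and 133 CPM at GSK126 day 2 and 247 and 238 CPM at day 5 (0.92 ± 0.11, adjusted p = 9.4e-10). STMN2, a growth cone regulator of tubulin, had 568 and 526 CPM and then 892 and 895 CPM (0.71 ± 0.09, adjusted p = 5.3e-10). CNTN1, an axonal adhesion molecule, had 466 and 490 CPM and then 705 and 730 CPM (0.59 ± 0.09, adjusted p = 4.6e-07). These 3 calls held. They also had positive DMSO steps, 0.47 ± 0.13 for DCX, 0.44 ± 0.09 for STMN2 (called, adjusted p = 0.0025) and 0.25 ± 0.09 for CNTN1, and no difference of the steps was called for them. The STMN2 call in DMSO passed in 2 of 4 fits with a library left out and was lost by DESeq2 (adjusted p = 0.068), and without DMSO day 5 replicate 1 the step was 0.27 (adjusted p = 0.71). The 2 fallers were ELAVL3, a neuronal RNA-binding protein (-0.43 ± 0.12), and KIF5C, a kinesin heavy chain (-0.39 ± 0.11, named after its value was seen). ELAVL3 passed in 1 of the 4 fits with a library left out (adjusted p = 0.39 without GSK126 day 2 replicate 1), and KIF5C was not called in any fit that left out a library (largest adjusted p 0.30, without GSK126 day 2 replicate 2).

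**Figure D2:**
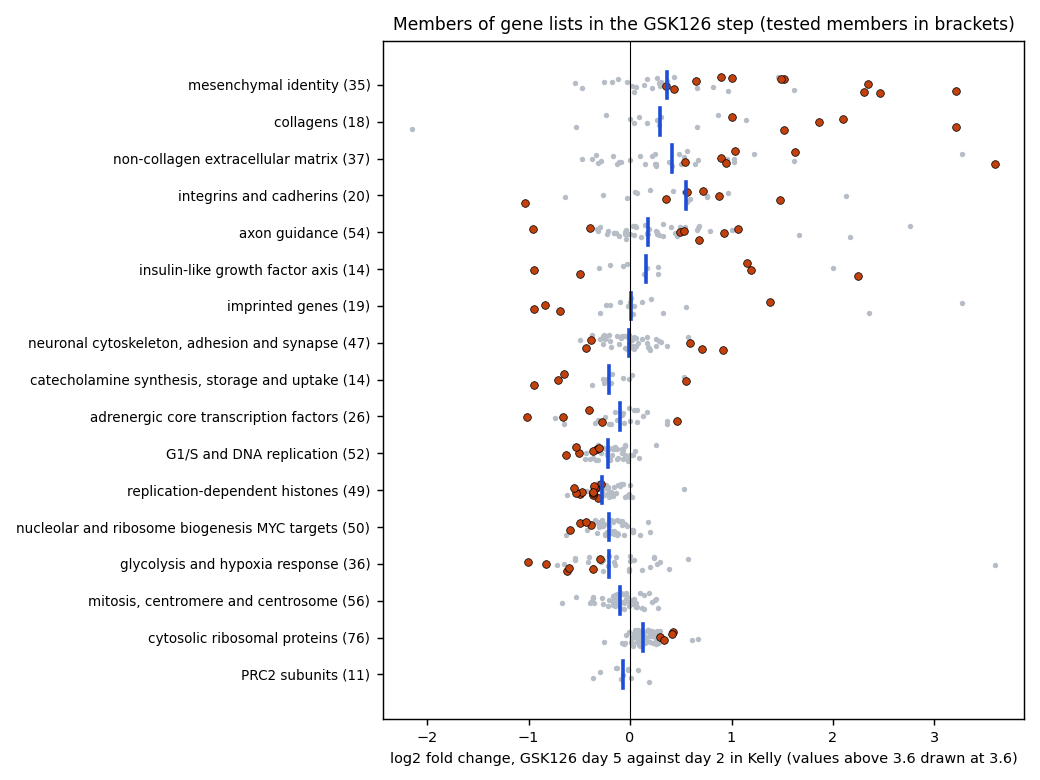
Log2 fold change of GSK126 day 5 against day 2 in Kelly for the tested members of 17 gene lists; red points were called, grey points were not, and blue bars are list medians. Called members of the mesenchymal and matrix lists all lie to the right of 0, and those of the replication, histone, nucleolar and glycolysis lists all lie to the left.

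The enzymes that make noradrenaline fell together. Of 14 tested genes of catecholamine synthesis, storage and uptake, 3 were called lower and 1 higher (median -0.20), and these 4 calls held. DBH, which converts dopamine to noradrenaline, had 610 and 794 CPM in DMSO at day 2, 827 and 821 CPM in DMSO at day 5, 645 and 629 CPM at GSK126 day 2 and 352 and 312 CPM at GSK126 day 5. The day 5 drug libraries lay below all 6 others, and the day 2 drug libraries lay among the DMSO day 2 ones. Its GSK126 step was -0.94 ± 0.09 (adjusted p = 7.7e-14), its DMSO step 0.22 ± 0.09, and the difference -1.17 ± 0.13 (adjusted p = 1.4e-11). TH, tyrosine hydroxylase, the rate-limiting enzyme of the pathway, had 209 and 212 CPM at GSK126 day 2 and 126 and 140 CPM at day 5, against 195 and 228 CPM and then 293 and 258 CPM in DMSO. The TH step was -0.66 ± 0.12 with GSK126, 0.37 ± 0.11 in DMSO (not called), and the difference -1.02 ± 0.16 (adjusted p = 8.5e-06). DDC, which makes dopamine from L-DOPA, had 231 and 233 CPM and then 153 and 131 CPM with GSK126, and 280 and 267 CPM and then 281 and 266 CPM in DMSO. The DDC steps were -0.71 ± 0.12 and -0.00 ± 0.10, and their difference -0.71 ± 0.15 (adjusted p = 0.0062). The differences for DBH and TH were called in all 8 fits that left out a Kelly library; that for DDC was lost in 2, with adjusted p = 0.20 without GSK126 day 5 replicate 2.

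The fourth called gene, MAOA, degrades monoamines and rose with time in both arms, from 182 and 184 to 280 and 257 CPM with GSK126 (0.55 ± 0.11) and from 183 and 182 to 269 and 310 CPM in DMSO (0.67 ± 0.11). The vesicular transporter SLC18A2 (-0.07) and the noradrenaline transporter SLC6A2 (-0.01) were not called in the GSK126 step. DBH and DDC overlap antisense genes on the opposite strand.

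Among 26 adrenergic core transcription factors, 4 were called lower and 1 higher in the GSK126 step (median -0.10), and in the difference of the steps 4 were lower and 0 higher. HAND2, a factor of the sympathetic lineage, fell from 723 and 735 to 600 and 600 CPM with GSK126 (-0.28 ± 0.09, adjusted p = 0.048; in none of the 4 fits, largest adjusted p 0.25, without GSK126 day 2 replicate 2) and had 720 and 819 CPM and then 1010 and 900 CPM in DMSO. The HAND2 difference of -0.59 ± 0.12 (adjusted p = 0.0019) was lost only without DMSO day 5 replicate 1 (adjusted p = 0.084). GATA3 (-0.00), PHOX2A (-0.08) and ISL1 (0.17) were not called. INSM2 and TFAP2B, also lower in the difference, and HAND2 were named after their values were seen. The difference was -0.82 ± 0.14 for INSM2, called in all 8 fits that left out a library, and -0.57 ± 0.15 for TFAP2B, called in 1 of 8 (adjusted p = 0.63 without GSK126 day 5 replicate 2). GATA2, another sympathetic lineage factor, fell in both arms (-0.40 ± 0.08 with GSK126, -0.33 ± 0.08 in DMSO). Its GSK126 call was lost without GSK126 day 5 replicate 2 (adjusted p = 0.13), and its DMSO call passed in 1 of 4 fits (adjusted p = 0.52 without DMSO day 2 replicate 2). EYA1, a transcriptional cofactor of organ development, was called higher (0.46 ± 0.13) but in none of the 4 fits (largest adjusted p 0.26, without GSK126 day 2 replicate 1). CHGA, chromogranin A of secretory granules, fell from 2453 and 2369 to 1892 and 1795 CPM (-0.39 ± 0.08, adjusted p = 3.1e-04, held). In DMSO it had 2424 and 2634 CPM and then 2643 and 2827 CPM.

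**Figure D3:**
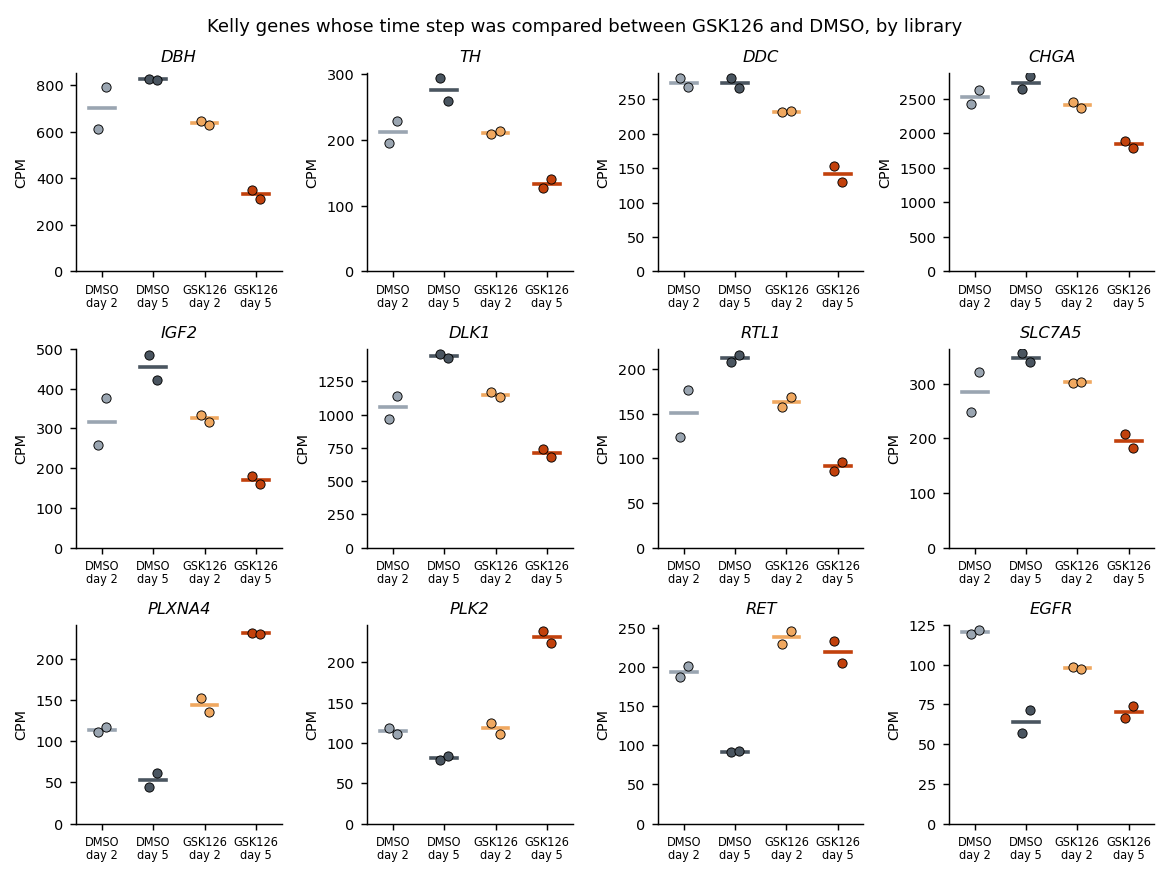
CPM of 12 genes in each of the 8 Kelly libraries, by treatment and day; points are libraries, bars are the means of 2, and each y axis starts at 0. DBH, IGF2 and DLK1 lie lowest at GSK126 day 5, while RET and PLXNA4 lie lowest at DMSO day 5.

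The imprinted growth genes IGF2, DLK1 and RTL1 moved in opposite directions in the arms. Of 19 tested imprinted genes, 3 were called lower and 1 higher in the GSK126 step (median 0.01), and these 3 were also the ones called lower in the difference of the steps. IGF2, an insulin-like growth factor expressed from the paternal allele (chr11:2150342-2179621, GRCh37), had 335 and 316 CPM at GSK126 day 2 and 180 and 159 CPM at day 5. In DMSO it had 258 and 376 CPM at day 2 and 484 and 422 CPM at day 5. The IGF2 step was -0.95 ± 0.12 with GSK126 (adjusted p = 1.3e-09, held) and 0.49 ± 0.10 in DMSO, and the difference was -1.44 ± 0.15 (adjusted p = 2.1e-11). The IGF2 interval contains other annotated transcripts, so its reads may not all be its own.

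DLK1, a non-canonical Notch ligand of progenitor cells (chr14:101192042-101204561, GRCh37), had 1171 and 1129 CPM at GSK126 day 2 and 740 and 681 CPM at day 5, against 969 and 1143 CPM and then 1456 and 1427 CPM in DMSO. Its steps were -0.70 ± 0.08 (held) and 0.44 ± 0.08, with a difference of -1.14 ± 0.12 (adjusted p = 4.6e-13). RTL1, a retrotransposon-derived gene of the same imprinted cluster, had 157 and 169 CPM and then 86.1 and 96.2 CPM with GSK126 and 124 and 177 CPM and then 208 and 216 CPM in DMSO. Its steps were -0.84 ± 0.14 (held) and 0.47 ± 0.12, with a difference of -1.30 ± 0.18 (adjusted p = 2e-07), and it overlaps microRNA genes on the opposite strand. The differences for all 3 genes were called in all 8 fits that left out a Kelly library. The DMSO rises were less firm: without DMSO day 2 replicate 1 the adjusted p was 0.55 for IGF2, 0.079 for DLK1 and 0.70 for RTL1. NDN, necdin, the riser of the list, went from 8.57 and 10.2 to 21.3 and 27.5 CPM (1.38 ± 0.35) but passed in 1 of 4 fits (adjusted p = 0.25 without GSK126 day 5 replicate 2).

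Within the insulin-like growth factor axis, 3 of 14 tested genes were called higher and 2 lower. Beside INSR, the risers were the binding proteins IGFBP5 and IGFBP3. IGFBP5 had 94.9 and 86.1 CPM at GSK126 day 2 and 206 and 209 CPM at day 5, with 82.7 to 118 CPM in DMSO (1.20 ± 0.12, adjusted p = 4.8e-13, held). IGFBP3 went from 25.7 and 24.2 to 61.5 and 50.4 CPM (1.16 ± 0.22, held), with 6.73 to 15.3 CPM in DMSO. The difference of the steps for IGFBP5, 0.79 ± 0.19, was called (adjusted p = 0.021) but in 1 of 8 fits with a library left out (adjusted p = 0.21 without DMSO day 2 replicate 2).

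MYCN fell moderately. It had 2744 and 2874 CPM in DMSO at day 2, 2399 and 2616 CPM in DMSO at day 5, 2568 and 2570 CPM at GSK126 day 2 and 1901 and 1929 CPM at GSK126 day 5. The day 5 drug libraries were the lowest of the 8, the step was -0.42 ± 0.08 (adjusted p = 6.5e-05, held), and the difference from the DMSO step, -0.26 ± 0.11, was not called (adjusted p = 0.51). MYCN overlaps its antisense gene MYCNOS (chr2:16080672-16087129, GRCh37). Of 50 tested nucleolar and ribosome biogenesis genes often listed as MYC targets, 4 were called lower and 0 higher (median -0.21), and 1 to 4 with a library left out. MYBBP1A, a nucleolar MYB-binding protein, went from 152 and 156 to 110 and 94 CPM (-0.60 ± 0.13, adjusted p = 0.0017), and its call was lost without GSK126 day 5 replicate 2 (adjusted p = 0.15). DESeq2 called 1 gene of the nucleolar list lower, and did not call MYBBP1A (adjusted p = 0.069). In the DMSO step (median -0.08) and in the difference of the steps, 0 genes of that list were called. SLC7A5, a large neutral amino acid transporter, was not counted in the nucleolar list. It was the only called member of 42 tested genes of amino acid stress and the unfolded protein response. SLC7A5 had 301 and 304 CPM at GSK126 day 2 and 208 and 182 CPM at day 5, against 248 and 322 CPM and then 355 and 339 CPM in DMSO. Its steps were -0.64 ± 0.11 (held) and 0.27 ± 0.10, and the difference of -0.90 ± 0.15 (adjusted p = 1.8e-05) was called in all 8 fits.

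The promoters of SLC7A5 and MYBBP1A are shown because both genes fell beside MYCN and because each holds the letters CACGTG, the canonical E-box of MYC family proteins, once. Since they were chosen for holding it, its presence in them supports nothing. CACGTG is in capitals, reads the same on both strands and contains a CG. It occurs in 2548 of the 35116 promoters of the table (7.26%), and in 9.57% of those of tested genes. A comparison of risers and fallers is void, since the table held only 73.8% and 63.4% of them. The windows are chr16:87869458-87869757 for SLC7A5 and chr17:4555335-4555634 for MYBBP1A (GRCh38.p14, both minus strand, from RefSeq). A match of letters is a description and was not tested for binding.
SLC7A5: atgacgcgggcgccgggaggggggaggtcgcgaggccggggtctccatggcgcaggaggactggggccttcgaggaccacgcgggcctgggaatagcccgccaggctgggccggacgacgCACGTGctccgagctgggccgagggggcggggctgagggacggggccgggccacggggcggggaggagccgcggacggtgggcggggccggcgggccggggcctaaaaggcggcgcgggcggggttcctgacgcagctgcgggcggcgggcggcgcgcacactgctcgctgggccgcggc
MYBBP1A: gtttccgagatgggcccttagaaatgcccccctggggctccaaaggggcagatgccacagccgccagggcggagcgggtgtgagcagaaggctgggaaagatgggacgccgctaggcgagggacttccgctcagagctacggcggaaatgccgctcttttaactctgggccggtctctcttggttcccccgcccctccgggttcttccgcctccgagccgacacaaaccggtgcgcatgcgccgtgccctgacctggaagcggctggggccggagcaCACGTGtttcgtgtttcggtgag

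Of 52 tested G1/S and replication genes, 6 were called lower and 0 higher (median -0.22), but 1 to 2 with a library left out and 1 by DESeq2. MCM5, a subunit of the replicative helicase, was the member that held, from 269 and 264 to 174 and 170 CPM (-0.63 ± 0.11, adjusted p = 2.3e-05), with 244 to 308 CPM in DMSO. Of 49 tested replication-dependent histone genes, 12 were called lower and 0 higher (median -0.28). Over all genes 0.944% were called lower. In DMSO the median step was -0.12 for the G1/S and replication genes and -0.11 for the histone genes. No member of either list was called in DMSO or in the difference of the steps. No histone gene was called by DESeq2 or without GSK126 day 2 replicate 1, and 8 were called with a replicate block, and their near-identical copies can share reads. None of 56 mitosis genes was called by edgeR or DESeq2 (median -0.09), and at an unadjusted p under 0.05 edgeR had 1 higher and 9 lower. CDKN1A, the inhibitor p21, had 66.1 and 70.2 CPM and then 101 and 83.3 CPM (0.43 ± 0.16, adjusted p = 0.14).

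Glycolysis and hypoxia genes had 6 of 36 called lower and 0 higher (median -0.21), with 0 called without GSK126 day 2 replicate 1 and 1 by DESeq2. HK2, hexokinase 2, went from 125 and 118 to 78.7 and 78.7 CPM (-0.63 ± 0.14, adjusted p = 0.0021) and had 112 to 148 CPM in DMSO. It passed in 2 of 4 fits (adjusted p = 0.062 without GSK126 day 2 replicate 1). Of 76 tested cytosolic ribosomal protein genes, 4 were called higher and 0 lower, and 70 had a positive step. Their median was 0.13 with GSK126 and 0.15 in DMSO, 0 were called by DESeq2 or without GSK126 day 2 replicate 1, and ribosomal protein genes have many processed copies that can share reads.

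**Figure D4:**
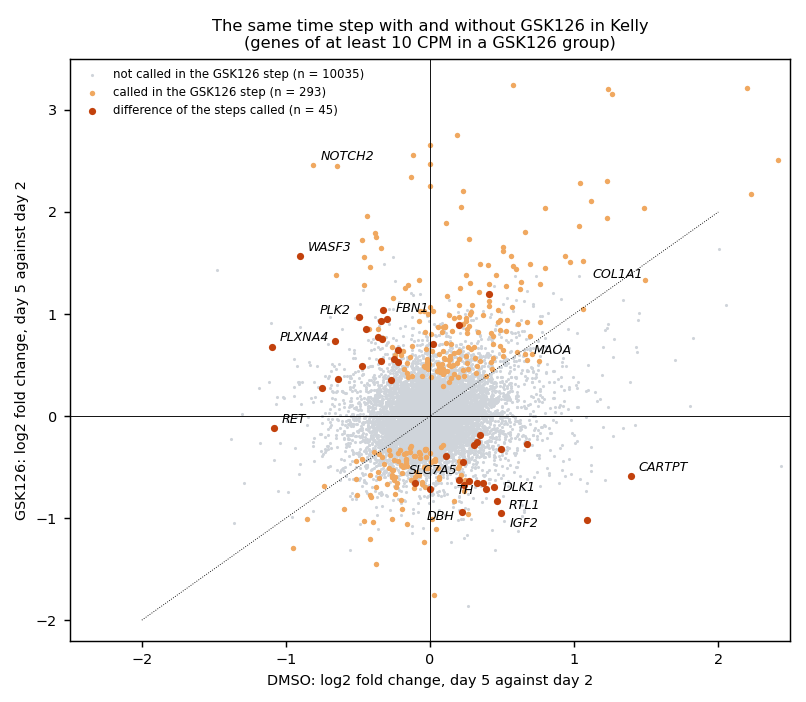
Log2 fold change of day 5 against day 2 in Kelly, in DMSO (x axis) and in GSK126 (y axis), for the 10373 genes with at least 10 CPM in a GSK126 group; 7 lie outside the axes. Grey points (10035) were not called in the GSK126 step or the difference, orange points (293) were called in the GSK126 step but not in the difference, the dotted line marks equal steps, and for the 45 red points the difference of the steps was called, among them PLXNA4 (-1.10 in DMSO, 0.68 in GSK126) and DLK1 (0.44 and -0.70).

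Another set of genes had steps that differed in sign or size between the arms, the GSK126 step being the more positive. PLXNA4, a semaphorin receptor of axons, had 111 and 117 CPM at DMSO day 2 and 44.8 and 60.8 CPM at DMSO day 5, but 152 and 135 CPM and then 232 and 230 CPM with GSK126. Its steps were -1.10 ± 0.16 in DMSO and 0.68 ± 0.12 with GSK126, both called and both held, and the difference was 1.78 ± 0.20 (adjusted p = 3.4e-11). RET, the receptor of GDNF family ligands, went from 187 and 201 to 91.2 and 92.4 CPM in DMSO (-1.08 ± 0.12, adjusted p = 2.8e-10, held). With GSK126 it had 230 and 246 CPM and then 234 and 205 CPM (-0.12 ± 0.11, adjusted p = 0.70), and the difference was 0.96 ± 0.16 (adjusted p = 4.6e-05). PLK2, a polo-like kinase, had 119 and 111 CPM and then 79.2 and 83.3 CPM in DMSO (-0.49 ± 0.14, not called) and 125 and 111 CPM and then 238 and 224 CPM with GSK126 (0.97 ± 0.12, held). The PLK2 difference was 1.46 ± 0.19 (adjusted p = 5.3e-09). Named after their values were seen, KCTD12 (difference 1.00 ± 0.15), AHNAK (0.96 ± 0.15), TNS3 (1.14 ± 0.20), ESRRG (1.30 ± 0.24) and MECOM (1.27 ± 0.25) followed the same order, with a negative DMSO estimate and a positive GSK126 estimate. The differences of these 8 genes were called in all 8 fits that left out a Kelly library. EGFR, the epidermal growth factor receptor, was not of this set, and its difference of the steps was not called. In DMSO it fell from 120 and 122 to 56.8 and 71.1 CPM (-0.90 ± 0.15, held). With GSK126 it had 98.6 and 97 CPM at day 2, below both DMSO libraries of that day. At GSK126 day 5 it had 66.4 and 74.1 CPM (-0.47 ± 0.15, adjusted p = 0.06), overlapping DMSO day 5.

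Axon guidance genes gave 5 of 54 called higher and 2 lower (median 0.18), the risers including SLIT2, a secreted ROBO ligand (35.5 and 29.4, then 68.9 and 67.2 CPM; 1.06 ± 0.20, held). With a library left out 3 to 4 were called higher and 0 to 2 lower, none lower without GSK126 day 2 replicate 1, and DESeq2 called 1 higher and 0 lower. Of 18 tested BMP genes, 3 were called higher and 0 lower (median 0.25), and 0 to 2 with a library left out. Among them MSX2, a homeobox target of BMP signalling, went from 3.67 and 7.02 to 19.7 and 17.6 CPM (1.79 ± 0.39) and was lost without GSK126 day 2 replicate 1 (adjusted p = 0.15). Of 31 tested developmental transcription factors bound by PRC2, 3 were called higher and 1 lower (median 0.33), and 0 to 2 higher with a library left out. No HOX gene of 11 tested was called by edgeR or DESeq2, and at an unadjusted p under 0.05 edgeR had 1 higher and 1 lower.

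EZH2, the target of the drug, had 212 and 230 CPM at GSK126 day 2 and 182 and 179 CPM at day 5 (-0.29 ± 0.11, adjusted p = 0.16), and none of 11 tested PRC2 subunits was called by edgeR or DESeq2 (median -0.07; 0 higher and 1 lower at an unadjusted p under 0.05 in edgeR). GSK126 acts on the enzyme, so its RNA level does not check the treatment. NGFR, the low-affinity neurotrophin receptor, which has been reported as repressed by EZH2 in neuroblastoma, had 4.9 and 8.93 CPM and then 18.9 and 15.3 CPM (1.30 ± 0.39, adjusted p = 0.045) but passed in none of the 4 fits (largest adjusted p 0.48, without GSK126 day 2 replicate 1). CLU (0.22 ± 0.17) and CASZ1 (-0.09 ± 0.15), also reported as its targets, were not called.

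GSK126 against DMSO gave 21 called genes at day 2 (0.177%), 20 of them higher (0.169%) and 1 lower (0.00843%), and 581 at day 5 (4.90%), 391 higher (3.30%) and 190 lower (1.60%). These comparisons share libraries with the step. DBH was at -0.15 against DMSO at day 2 and -1.31 at day 5, and COL1A1 at 1.84 and 2.29.

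In LAN-1 the same step called 145 genes (1.22%), 104 higher (0.877%) and 41 lower (0.346%). The difference between the lines was called for 116 genes (0.978%), 68 more positive in Kelly (0.573%) and 48 more negative (0.405%), and for 31 to 343 with a library left out, the fewest without LAN-1 GSK126 day 2 replicate 1 and the most without LAN-1 GSK126 day 5 replicate 1. NOTCH2 stood at 188.5 and 220.5 CPM at day 2 and 230.1 and 212.7 CPM at day 5 in LAN-1, already above the 50 and 57.3 CPM that Kelly reached. Its LAN-1 step was 0.12 ± 0.12 and the difference between lines 2.34 ± 0.29 (adjusted p = 3.6e-09). YBX3 stood at 147.7 and 156.2 CPM and then 144.1 and 157.6 CPM in LAN-1, and its difference was 2.68 ± 0.41 (adjusted p = 3.6e-06). IGF2 went the other way in LAN-1, from 117.5 and 125.3 to 166.5 and 213.8 CPM (0.62 ± 0.14, adjusted p = 0.0061), with a difference of -1.57 ± 0.18 (adjusted p = 1.2e-09). MYCN had 1646 and 1778 CPM and then 1775 and 1943 CPM in LAN-1 (0.12 ± 0.08, not called), with a difference of -0.54 ± 0.11 (adjusted p = 0.0019). For NOTCH2, YBX3, IGF2 and MYCN the line difference was not followed gene by gene through fits that left out a library.

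**Figure D5:**
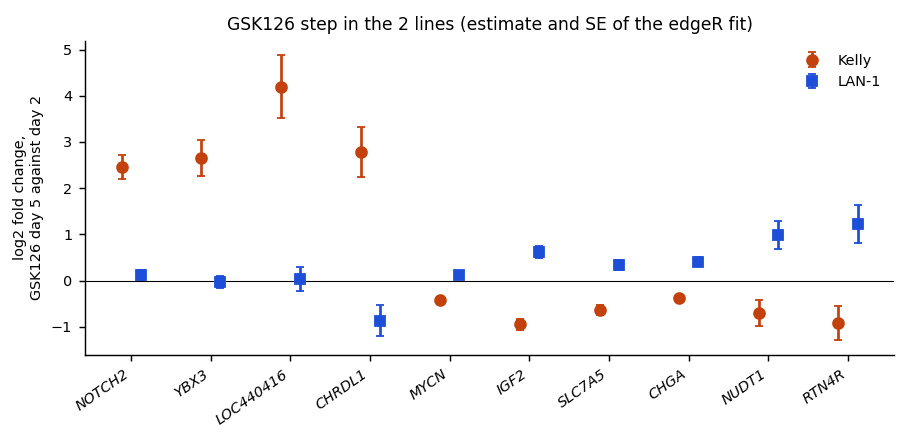
Log2 fold change of GSK126 day 5 against day 2 in Kelly and in LAN-1 for 10 genes whose difference between the lines was called; points are estimates and bars are standard errors. NOTCH2 and YBX3 lie at 2.46 and 2.66 in Kelly and near 0 in LAN-1, and IGF2 lies below 0 in Kelly (-0.95) and above 0 in LAN-1 (0.62).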

How the data were processed

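RNA-seq was made from Kelly and LAN-1 cells in GSK126 or DMSO, with 2 libraries in each of 8 groups. The deposited values are raw counts per gene made by the authors, and per the submitters' processing notes FastQC, TopHat2, featureCounts and GRCh37 (hg19) were used, while their versions, the annotation, the strand setting and multi-mapping treatment are not stated there. In all, 25728 gene symbols were listed, 6598 with no read. Groups were taken from the labels. The members and gene lists were chosen with earlier results of these data known.

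Genes passing filterByExpr at a minimum count of 10 (11863) were fitted with edgeR 4.0.16 (R 4.3.3, limma 3.58.1), TMM scaling (factors 0.9774 to 1.026) and the robust quasi-likelihood test over all 16 libraries, with 8 group means and 8 residual degrees of freedom. Benjamini-Hochberg adjustment covered all tested genes and the threshold was 0.05. Values after ± are standard errors. CPM is the count over the scaled total of the tested genes, times 1e+06. Floors are 3 counts over a group, 1.837 to 2.459 CPM for 3 counts in a single GSK126 library of Kelly, and ratios on 1 to 3 counts have an exact 95% interval. Both cover counting error only, since the labels mention no molecular identifiers.

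Genes were named by rule: 11 of prior interest, the 10 largest called rises and falls with at least 10 CPM and no overlap of libraries, the 6 and 5 largest per direction in the difference of steps and in DMSO, up to 4 called members per list, and the 4 largest per direction between lines. Other called genes are marked as named after their values were seen. Genes with symbols altered to dates were not named, and some genes counted in the lists are not reported here. Positions come from GENCODE release 44 mapped to GRCh37, promoters from a RefSeq table (GRCh38.p14) that held 9024 of the tested genes. Duplicates of every group differed by more than counting noise (variance 1.102 to 1.952 times that of counting). The scripts were tested on simulated data. Alternatives were RLE scaling, DESeq2 1.42.0, other count filters, Kelly libraries only, a replicate block and leaving out each library.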

Additional observations from a re-analysis of the deposited data

Results flagged for a closer look

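For the following genes the change from day 2 to day 5 differed between GSK126 and DMSO in Kelly by a test of the difference itself (edgeR, adjusted over all genes). The GSK126 step was the more positive by these log2 differences: LOC440416 7.91, CHRDL1 5.42, WASF3 2.47, PLXNA4 1.78, PLK2 1.46, PALMD 1.39, DKK1 1.37, ESRRG 1.30, MECOM 1.27, FBN1 1.25, TNS3 1.14, KCTD12 1.00, AHNAK 0.96, RET 0.96, IGFBP5 0.79, FN1 0.69, SOX4 0.69 and CDH11 0.63. It was the more negative for KLF15 (-2.11), CARTPT (-1.98), IGF2 (-1.44), RTL1 (-1.30), DBH (-1.17), DLK1 (-1.14), TH (-1.02), GAL (-0.91), SLC7A5 (-0.90), HK2 (-0.83), INSM2 (-0.82), DDC (-0.71), HAND2 (-0.59), TFAP2B (-0.57), CNTNAP2 (-0.54) and CHGA (-0.50). CDH11, SOX4, DKK1 and CNTNAP2 were named after their values were seen. LOC440416 and CHRDL1 had 0 and 1 counts at DMSO day 5, so their values are fitted and no bound. Of these 34 differences, 15 passed in all 8 fits that left out a library: DBH, TH, IGF2, RTL1, DLK1, PLXNA4, PLK2, RET, SLC7A5, AHNAK, KCTD12, TNS3, ESRRG, MECOM and INSM2. FBN1 and HAND2 passed in 7 and DDC in 6, CHRDL1 (largest adjusted p 0.27) and CHGA (0.096) in 5, and CARTPT (0.16) in 4. WASF3 (0.25), DKK1 (0.24), CDH11 (0.19), HK2 (0.10) and CNTNAP2 (0.36) passed in 3. LOC440416 (0.27), KLF15 (0.23), PALMD (0.42), SOX4 (0.18), FN1 (0.28) and GAL (0.38) passed in 2, and IGFBP5 (0.21) and TFAP2B (0.63) in 1. DESeq2 did not call DDC, GAL, FN1, FBN1, IGFBP5, CDH11, TNS3, SOX4, CNTNAP2 or TFAP2B, and gave no adjusted p for LOC440416, CHRDL1, KLF15, CARTPT, WASF3, PALMD, ESRRG, MECOM or DKK1.

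The GSK126 step also differed between Kelly and LAN-1 by the same kind of test. It was the more positive in Kelly for LOC440416 (4.16), NAP1L2 (4.09), CHRDL1 (3.65), YBX3 (2.68) and NOTCH2 (2.34). The value of 5.30 for FBN2 is fitted from 0 counts at GSK126 day 2 in Kelly and is no bound. It was the more negative for FBXL15 (-2.85), SCRT2 (-2.33), RTN4R (-2.15), NUDT1 (-1.69), IGF2 (-1.57), SLC7A5 (-0.97), CHGA (-0.80) and MYCN (-0.54). For YBX3, NOTCH2, IGF2, SLC7A5, CHGA and MYCN the line difference was not followed gene by gene through fits that left out a library. Of the 8 fits that left out a library, NAP1L2 (largest adjusted p 0.34) and SCRT2 (0.23) passed in 1, RTN4R (0.21) in 2, FBXL15 (0.21) and FBN2 (0.28) in 3 and NUDT1 (0.10) in 4.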

How the results depend on the processing

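DESeq2 called fewer genes in every comparison: 49 higher and 19 lower in the GSK126 step, 3 and 12 in the DMSO step, 5 and 10 in their difference, and 26 between the lines, all of them also called by edgeR. Leaving out 1 library at a time gave 77 to 130 higher and 24 to 57 lower in the GSK126 step, 4 to 24 and 6 to 27 in the DMSO step, 12 to 20 and 10 to 29 in the difference, and 31 to 343 between the lines. The lone sample left in a group is then assumed to vary like the other groups. In the difference of the steps 15 of 45 genes kept their call in each of the 8 such fits, and without DMSO day 2 replicate 1, which stands apart, 15 were higher and 15 lower. RLE scaling, count filters and the Kelly libraries alone moved these counts by less than 1.5 times. Among single values 2 changed sign, both uncalled: CLU was at -0.0795 without GSK126 day 5 replicate 1 and CASZ1 at 2e-04 without GSK126 day 2 replicate 1, and over the 4 fits they ranged from -0.0795 to 0.4828 and from -0.1978 to 2e-04. With the replicate number as a block, 208 genes were called higher and 90 lower in the GSK126 step, and 24 and 20 in the difference. The labels do not say whether the replicate numbers pair the samples. Correlations of the replicate differences between Kelly groups lay between -0.2111 and 0.2091 over 3948 genes, which cannot decide it, since a pairing need not leave a shared difference. Totals of 912095 to 1666190 counts limit genes near the floor of 3 counts, and 2 libraries per group limit every test.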
